A study of Arabidopsis thaliana with 24 samples.

Results

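The dehydrin family of Arabidopsis thaliana was followed through leaves that carry altered forms of the histone variant H2A.Z and were given abscisic acid (ABA), the hormone of drought and cold stress. The family was taken as 10 named loci: COR47 (AT1G20440), ERD10 (AT1G20450), ERD14 (AT1G76180), RAB18 (AT5G66400), XERO1 (AT3G50980), XERO2/LTI30 (AT3G50970), HIRD11 (AT1G54410), AT2G21490, AT4G38410 and AT4G39130. Of these 10 genes, 9 are among the 22279 genes of the count files. XERO2/LTI30 has a single exon and is not analysed here. Of the 9, AT2G21490 and AT4G39130 had too few counts to be tested, and 7 entered the tests.

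The study measured leaf RNA of 3-week-old plants in 24 libraries, 3 biological replicates for each of 8 groups. Delta28 plants lack their own H2A.Z (an h2a.z null background) and express a form of HTA11, an H2A.Z gene, cut short by 28 residues at its amino terminus. K>R 1-9 plants have the same null background, with HTA11 in which all 9 lysines of the amino-terminal tail are arginine. K>R 3 plants have it too, with HTA11 in which the third lysine alone, residue 13, is arginine. WT plants keep their own H2A.Z genes, so each mutant differs from WT both in the background and in the HTA11 variant, and no line with unmodified HTA11 in the null background is among the groups. Leaves of each genotype were brushed with 10 uM ABA or with DMSO in water as the mock treatment, each containing 0.01% of the surfactant Silwet L-77, and frozen after 4 h. The libraries came from a kit that reads the 3′ ends of polyadenylated transcripts (QuantSeq FWD).

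Dehydrins are hydrophilic, largely unfolded proteins of the late embryogenesis abundant class, which accumulate in seeds and in leaves that dry or freeze, where they are known to protect membranes and enzymes. They are recognised by a lysine-rich K-segment. In leaves many dehydrin genes respond to ABA through bZIP transcription factors of the ABF group, which bind the ABA-responsive element (ABRE) with the core ACGTG, or to cold through CBF and DREB factors, which bind the dehydration-responsive element (DRE).

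The upstream sequences shown here let the reader set the ABA responses beside the letters these factors are known to bind. Sequence and positions are from RefSeq's TAIR10.1 annotation. The count files name no build, and only their gene identifiers and transcript lengths were compared with that annotation. Each window holds the 250 bases before the outermost annotated transcript start, read 5′ to 3′ on the strand of the gene, with matches to the ABRE core in capitals (CACGT is ACGTG read on the other strand). XERO1, ERD14 and COR47 are genes whose levels rose with ABA in at least 3 genotypes, and HIRD11 is one whose level did not pass the test in any genotype. The windows lie at chr3:18941675-18941924 (plus strand) for XERO1, chr1:28587932-28588181 (minus strand) for ERD14, chr1:7086874-7087123 (minus strand) for COR47 and chr1:20310851-20311100 (minus strand) for HIRD11, and these 4 windows hold no annotated exon.
XERO1: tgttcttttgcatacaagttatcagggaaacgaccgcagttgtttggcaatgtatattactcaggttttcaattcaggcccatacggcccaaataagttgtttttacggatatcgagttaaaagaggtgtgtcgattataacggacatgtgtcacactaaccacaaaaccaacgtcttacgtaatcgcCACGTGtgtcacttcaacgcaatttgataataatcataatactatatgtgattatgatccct
ERD14: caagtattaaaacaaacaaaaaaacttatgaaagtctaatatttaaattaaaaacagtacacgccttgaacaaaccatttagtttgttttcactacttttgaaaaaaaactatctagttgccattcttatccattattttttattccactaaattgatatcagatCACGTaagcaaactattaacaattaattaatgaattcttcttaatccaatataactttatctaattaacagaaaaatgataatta
COR47: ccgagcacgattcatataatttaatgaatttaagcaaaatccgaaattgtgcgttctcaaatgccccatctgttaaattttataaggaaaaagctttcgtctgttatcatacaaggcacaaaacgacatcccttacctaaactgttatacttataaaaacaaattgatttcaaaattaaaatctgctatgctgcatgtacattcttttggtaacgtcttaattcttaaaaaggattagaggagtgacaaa
HIRD11: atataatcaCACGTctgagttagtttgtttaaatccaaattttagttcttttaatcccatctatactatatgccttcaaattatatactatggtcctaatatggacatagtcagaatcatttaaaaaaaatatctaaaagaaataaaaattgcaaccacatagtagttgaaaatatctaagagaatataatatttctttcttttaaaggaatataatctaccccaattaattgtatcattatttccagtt

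In XERO1 the palindrome CACGTG begins 62 bases before the start and counts as overlapping matches on both strands. ERD14 holds 1 match, 85 bases before its start. HIRD11 also holds 1 match, at the far end of its window, 241 bases before its start. The windows of COR47 and ERD10 held neither the ABRE core nor a DRE, searched as ACCGAC or GCCGAC on both strands. RAB18 has a second annotated start downstream of the first, and the stretch shown next, at chr5:26519355-26519380 (minus strand), begins 138 bases before that second start, inside the first exon of the other transcript. It is shown because an ABRE core and a DRE stand side by side in it, both in capitals.
RAB18: CACGTatggcgaaacaccacGCCGAC

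Over the 10 loci, 7 windows held at least 1 ABRE core, a motif found in 21.8% of 31345 promoters of the same length. A DRE was found in 1 window, that of XERO2/LTI30, with 3 matches, against 7.1% of all promoters. Windows were counted whether or not they overlap annotated exons: all 250 bases of the RAB18 window lie in the first exon of its neighbour PLP3b on the other strand, and exons cover 130 bases of the window of AT4G38410, 36 of XERO2/LTI30 and 11 of AT4G39130. A match describes the letters and is not a shown binding site. Genes whose levels rose stand on both sides: COR47 and ERD10 without a match in this window, RAB18, XERO1 and ERD14 with at least 1. HIRD11 and AT4G38410, which did not pass the test in any genotype, hold 1 and 2 ABRE core matches.

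**Figure D1:**
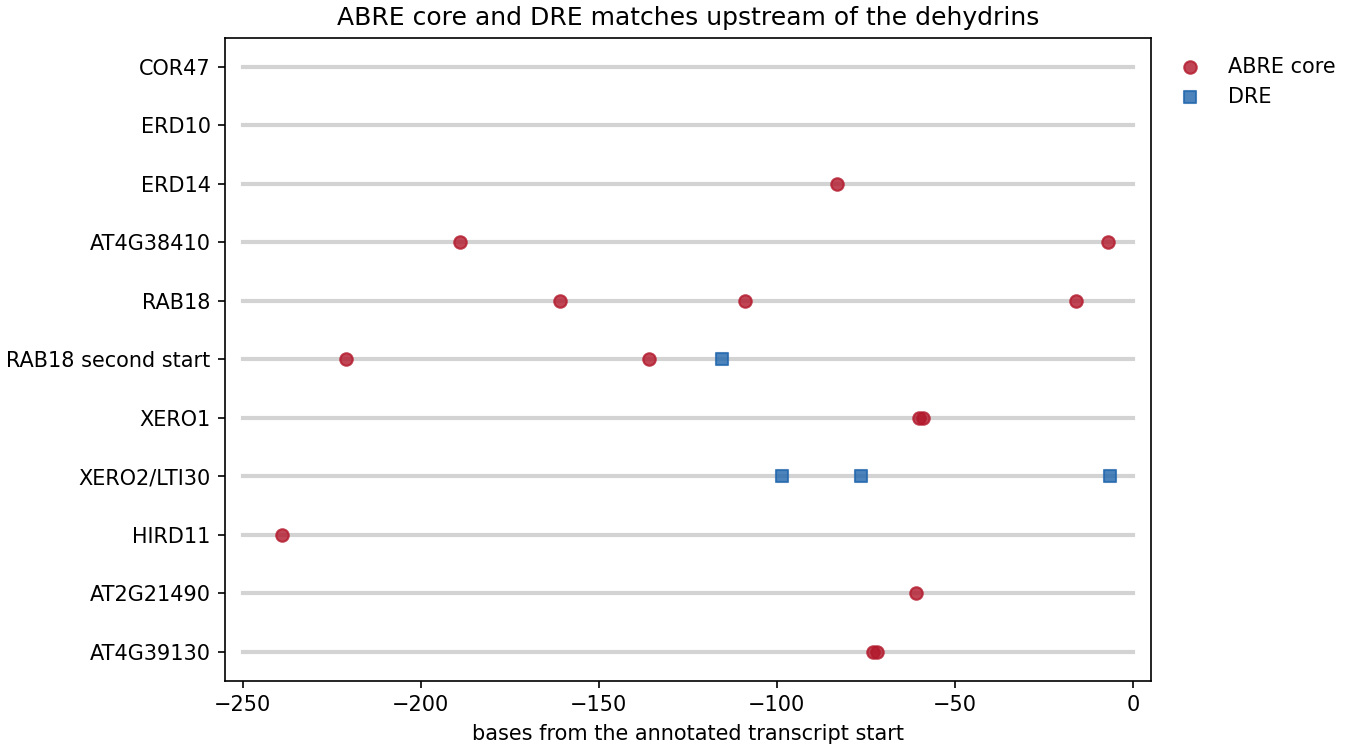
Positions of ABRE core matches (circles) and DRE matches (squares) in the 250 bases before the annotated start of the 10 dehydrin genes, with a second row for the downstream start of RAB18, whose window overlaps the first. The x axis gives bases from the transcript start, and the rows of COR47 and ERD10 are empty.

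Facts of the libraries bear on every value that follows. Totals ran from 1565518 to 15086279 counts, with a median of 7142427, and levels are CPM, counts scaled to each library's total. In 11594 of 11674 genes with a single transcript the deposited length was what remains of the transcript once the exon with the lowest coordinate is removed. For a gene on the minus strand that exon carries the 3′ end, on which the reads of this assay fall, and the 11060 minus-strand genes held 12.6% to 17.6% of the counts of a library. XERO1 and AT4G38410 lie on the plus strand and keep their 3′ exon. COR47, ERD10, RAB18, HIRD11, AT2G21490 and AT4G39130 lie on the minus strand without it, and ERD14, also on the minus strand, keeps most of its 3′ region. Each gene is therefore compared with itself across libraries, and levels of different dehydrins are not ranked. In the library labelled K>R 3 mock replicate 2, HTA11 stood at 870.3 CPM, against 11.4 and 38.4 CPM in K>R 3 mock replicates 1 and 3, and within the 392.8 to 914.4 CPM of the K>R 1-9 libraries. The ABA responses of the dehydrins in K>R 3 rest in part on it, and their values without it are given beside them. HTA9, another H2A.Z gene, was at 53.7 to 108.8 CPM in the 18 mutant libraries and at 300.8 to 436.4 CPM in the 6 WT libraries.

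The acidic dehydrins COR47, ERD10 and ERD14 stood higher in all ABA libraries than in any mock library. As these are whole leaves, a changed share of a cell type and a changed amount of RNA per cell cannot be told apart. COR47, named for its induction by cold, stood at 524.8, 1553 and 554.7 CPM in the Delta28 ABA libraries, against 193.1, 217.6 and 197.1 CPM in Delta28 mock. K>R 1-9 ABA leaves had 566.1, 677.1 and 366.8 CPM of COR47, against 131.9, 61.8 and 29.9 CPM in K>R 1-9 mock. K>R 3 ABA leaves had 463.8, 725.3 and 322.7 CPM, against 213.3, 177.8 and 204.7 CPM in K>R 3 mock. WT ABA leaves had 749.0, 905.9 and 520.7 CPM, against 69.3, 159.1 and 201.2 CPM in WT mock. The 12 ABA libraries, from 322.7 CPM up, all lay above the 12 mock libraries, which reached 217.6 CPM. The single highest library was Delta28 ABA replicate 2.

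The fitted log2 fold change of COR47, ABA over mock, was 2.21 ± 0.49 (SE) in Delta28, with an adjusted p of 0.00473 by Benjamini-Hochberg over 13874 genes (edgeR's quasi-likelihood test). It was 2.88 ± 0.50 in K>R 1-9 (adjusted p = 0.00152, same edgeR test), and 2.39 ± 0.49 in WT (adjusted p = 0.00632). In K>R 3 it was 1.41 ± 0.48 and missed the threshold (adjusted p = 0.0587, edgeR), and without K>R 3 mock replicate 2 it was 1.30 (adjusted p = 0.148). In Delta28 the call rested on ABA replicate 2: without that library the log2 fold change was 1.46 and the adjusted p 0.0525. In K>R 1-9 the value was 3.61 without mock replicate 1, the highest mock library of that genotype.

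ERD10, a dehydrin with chaperone activity in vitro, lies 1029 bases from COR47 on the same strand of chromosome 1. Delta28 ABA leaves had 321.7, 1342 and 360.4 CPM of ERD10, against 117.5, 212.9 and 164.7 CPM in Delta28 mock. K>R 1-9 ABA leaves had 487.4, 463.7 and 297.2 CPM, against 127.9, 50.6 and 60.5 CPM in K>R 1-9 mock. K>R 3 ABA leaves had 388.4, 593.7 and 257.5 CPM, against 193.2, 111.9 and 146.3 CPM in K>R 3 mock. WT ABA leaves had 672.9, 706.3 and 335.1 CPM, against 55.1, 104.8 and 114.2 CPM in WT mock. Here too no mock library, at up to 212.9 CPM, reached the lowest ABA library, at 257.5 CPM. The log2 fold change was 2.14 ± 0.49 (SE) in Delta28, 2.43 ± 0.50 in K>R 1-9, 1.52 ± 0.49 in K>R 3 and 2.70 ± 0.51 in WT. The adjusted p-values in edgeR's quasi-likelihood test were 0.00643, 0.00469, 0.0469 and 0.00360, in that order of genotypes. The Delta28 call was lost without Delta28 ABA replicate 2 (1.11, adjusted p = 0.101, edgeR). The K>R 3 call was lost without any one of 5 K>R 3 libraries. The adjusted p (edgeR) was then 0.0694 without ABA replicate 1, 0.175 without ABA replicate 2, and 0.0852, 0.146 and 0.123 without mock replicates 1, 2 and 3, and the log2 fold change 1.31 without mock replicate 2.

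ERD14, the close relative of ERD10 that also acts as a chaperone in vitro, had the smallest standard errors of these 3. Delta28 ABA leaves had 1258, 1812 and 1048 CPM of ERD14, against 454.1, 588.9 and 689.5 CPM in Delta28 mock. K>R 1-9 ABA leaves had 1179, 1372 and 690.3 CPM, against 396.4, 290.1 and 257.4 CPM in K>R 1-9 mock. K>R 3 ABA leaves had 1087, 1261 and 801.3 CPM, against 480.8, 657.3 and 544.1 CPM in K>R 3 mock. WT ABA leaves had 1306, 1526 and 1124 CPM, against 325.9, 458.6 and 628.5 CPM in WT mock. All 12 ABA libraries again lay above all 12 mock libraries, though the gap was narrow: the lowest ABA library had 690.3 CPM and the highest mock library 689.5 CPM. The log2 fold change was 1.34 ± 0.29 (SE) in Delta28, 1.83 ± 0.29 in K>R 1-9, 0.99 ± 0.29 in K>R 3 and 1.53 ± 0.29 in WT. The adjusted p-values (edgeR's quasi-likelihood test) were 0.00416, 0.000991, 0.0316 and 0.00401 in the same order. In K>R 3 the call was lost without any one of 5 libraries. The adjusted p (edgeR) was then 0.0631 without ABA replicate 1, 0.108 without ABA replicate 2, and 0.139, 0.0505 and 0.0922 without mock replicates 1, 2 and 3, and the log2 fold change 1.07 without mock replicate 2.

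COR47, ERD10 and ERD14 gave the same order of the 8 group means, Delta28 ABA highest, then WT ABA, K>R 1-9 ABA, K>R 3 ABA, Delta28 mock, K>R 3 mock, WT mock and K>R 1-9 mock. For COR47 the means ± SD (n = 3 each) were 877.6 ± 585.3, 725.2 ± 193.7, 536.7 ± 157.3, 503.9 ± 204.3, 202.6 ± 13.2, 198.6 ± 18.5, 143.2 ± 67.4 and 74.5 ± 52.2 CPM. For each of these 3 genes the only neighbours in that order whose ranges did not overlap were K>R 3 ABA and Delta28 mock, the step between the treatments. Groups further apart in the order did not always overlap: in mock leaves COR47 and ERD14 were higher in every Delta28 and K>R 3 library than in any K>R 1-9 library, and ERD10 was higher in every Delta28 library than in any WT library. The differences between 2 mutants were not tested. How many of all genes separate in these ways was not counted, so these separations describe the libraries and are no result about the dehydrins. In ABA leaves the ranges of these 3 genes overlapped between all genotypes.

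**Figure D2:**
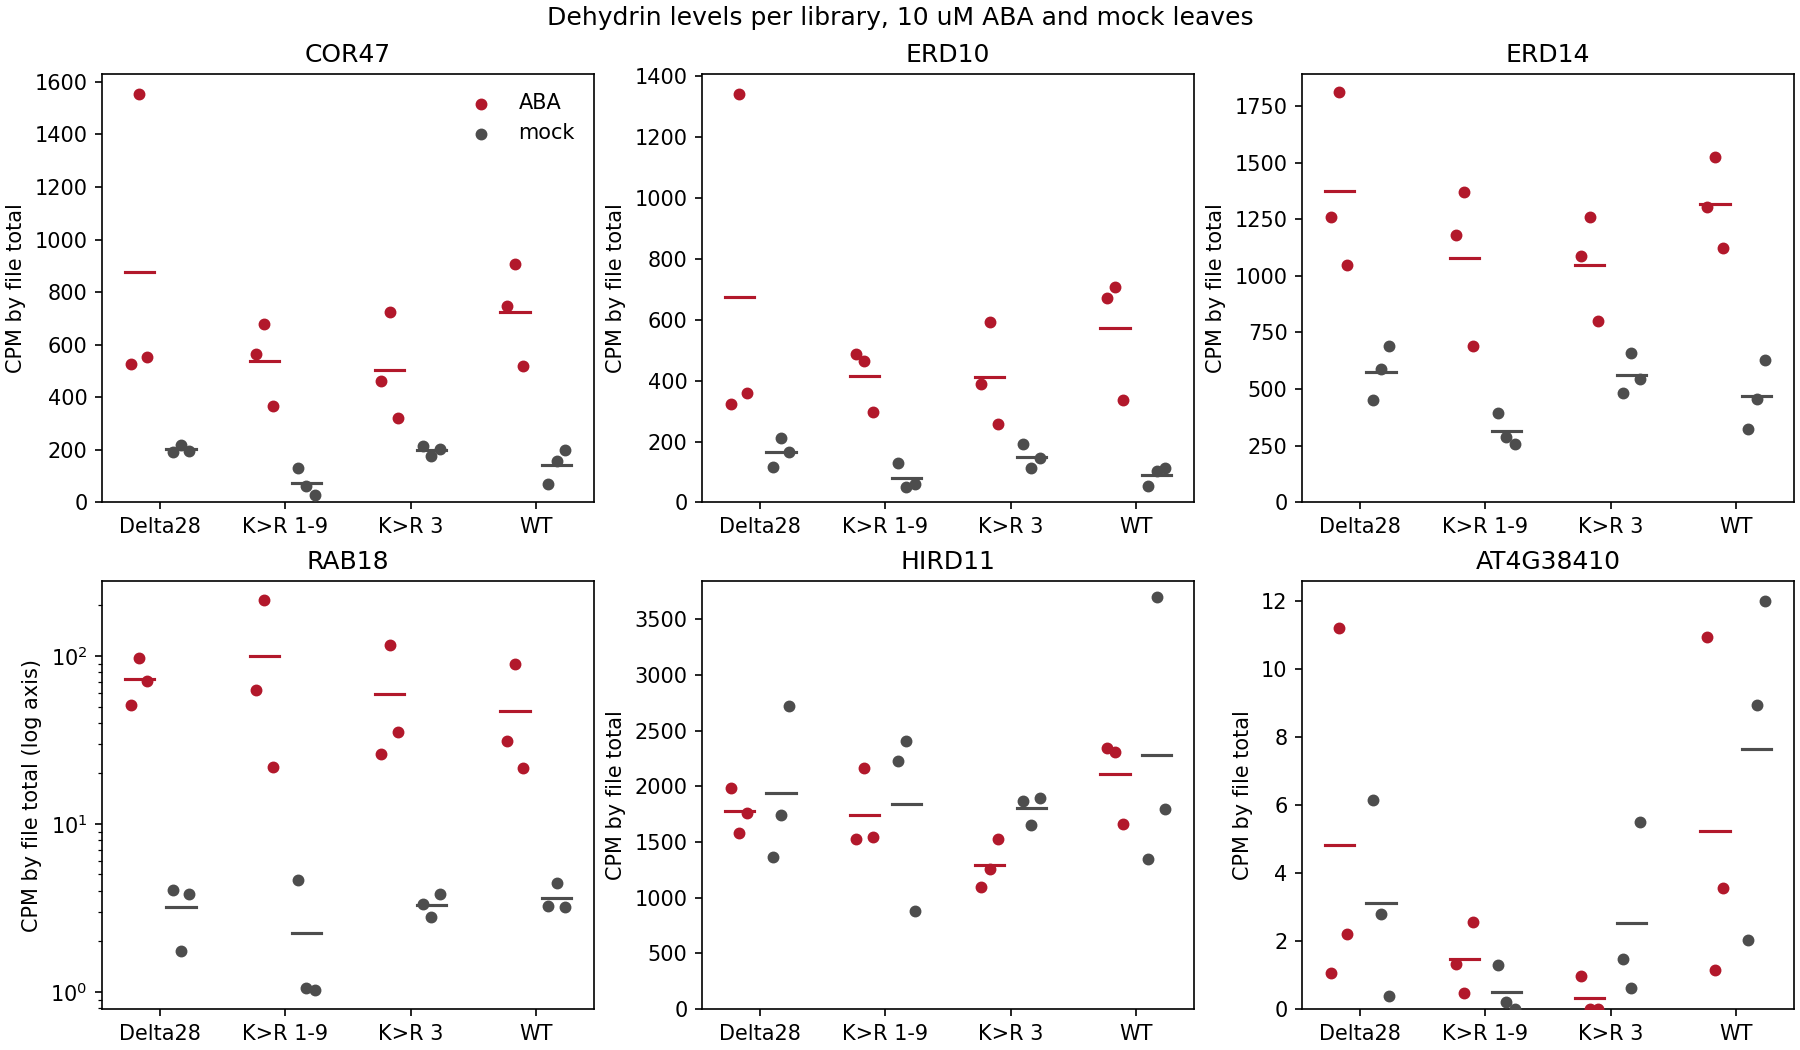
CPM of 6 dehydrins in each of the 24 libraries by genotype, with ABA leaves left of mock leaves, points for libraries and bars for means (n = 3). The RAB18 axis is logarithmic. COR47, ERD10, ERD14 and RAB18 separate all 12 ABA libraries from all 12 mock libraries, whereas HIRD11 and AT4G38410 overlap.

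RAB18, the basic dehydrin long used as a marker of ABA response, had the largest fitted rise among the dehydrins with counts in mock leaves. Delta28 ABA leaves had 51.1, 97.9 and 71.4 CPM of RAB18, against 4.03, 1.75 and 3.80 CPM in Delta28 mock. K>R 1-9 ABA leaves had 62.7, 214.3 and 21.8 CPM, against 4.65, 1.05 and 1.03 CPM in K>R 1-9 mock. K>R 3 ABA leaves had 26.2, 116.9 and 35.2 CPM, against 3.32, 2.77 and 3.82 CPM in K>R 3 mock. WT ABA leaves had 31.3, 89.1 and 21.6 CPM, against 3.24, 4.47 and 3.19 CPM in WT mock. The lowest ABA library, at 21.6 CPM, stood above the highest mock library, at 4.65 CPM, while the 3 ABA libraries of K>R 1-9 spanned nearly the whole range of ABA values.

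The log2 fold change of RAB18 was 4.61 ± 0.77 (SE) in Delta28 (adjusted p = 0.000684, edgeR's quasi-likelihood test), a 24.5-fold rise. It was 5.42 ± 0.81 in K>R 1-9 (adjusted p = 0.000741), 4.20 ± 0.78 in K>R 3 (adjusted p = 0.00219) and 3.79 ± 0.79 in WT (adjusted p = 0.00666, all by edgeR). In K>R 3 the value was 4.06 without mock replicate 2 (adjusted p = 0.012, edgeR) and 3.29 without ABA replicate 2. In K>R 1-9 it was 4.26 without ABA replicate 2 and 6.62 without mock replicate 1. The WT call was lost without WT ABA replicate 2, where the log2 fold change was 2.96 and the adjusted p 0.0534. The order of the group means differed from that of the acidic dehydrins: K>R 1-9 ABA at 99.6 ± 101.4 CPM (SD, n = 3), Delta28 ABA at 73.5 ± 23.5 CPM, K>R 3 ABA at 59.4 ± 49.97 CPM and WT ABA at 47.3 ± 36.5 CPM. These 4 ranges overlapped from one neighbour to the next, and the 4 mock means lay between 2.24 and 3.63 CPM.

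XERO1, a small dehydrin of the same tandem pair as XERO2/LTI30, 313 bases away, had counts in ABA leaves and in no mock library. Its counts were 34, 25 and 6 in the Delta28 ABA libraries, 29, 40 and 2 in K>R 1-9 ABA, 5, 18 and 10 in K>R 3 ABA and 2, 19 and 11 in WT ABA, against 0 in all 12 mock libraries. In ABA leaves this was 1.89 to 2.92 CPM in Delta28, 0.396 to 3.86 CPM in K>R 1-9, 0.778 to 3.52 CPM in K>R 3 and 0.626 to 1.82 CPM in WT. The rise was set against a floor of 3 counts over the mock libraries of a genotype, with the ABA counts taken as exact. It was then at least 26-fold in Delta28, at least 18-fold in K>R 1-9, at least 7.58-fold in K>R 3 and at least 6.38-fold in WT. This covers the counting error of the mock libraries only. The adjusted p-values in edgeR's quasi-likelihood test were 0.00374, 0.00917, 0.0174 and 0.0469 in that order. The WT call was lost without any one of the 6 WT libraries. The adjusted p (edgeR) was then 0.0797, 0.155 and 0.0518 without ABA replicates 1, 2 and 3, and 0.105, 0.103 and 0.177 without mock replicates 1, 2 and 3. The K>R 3 call was lost without ABA replicate 2 (0.0528), mock replicate 1 (0.0679) or mock replicate 3 (0.0597), and stood at 0.038 without mock replicate 2. XERO1 passed the filter through its ABA libraries alone, so that its calls do not support the count of the family.

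AT2G21490 and AT4G39130, dehydrins with no name beyond their locus, had counts in ABA leaves alone as well, at the edge of detection. AT2G21490 had 3, 3 and 4 counts in the K>R 3 ABA libraries, 4 counts in K>R 1-9 ABA replicate 2, and 0 in the other 20 libraries. That is at least 2.3-fold higher in K>R 3 ABA than in K>R 3 mock by the floor of 3 counts, with the ABA counts taken as exact. AT4G39130 had 4, 1 and 0 counts in Delta28 ABA, 5, 6 and 0 in K>R 1-9 ABA, 0, 3 and 0 in K>R 3 ABA, and 0 in the WT ABA libraries and in all 12 mock libraries. With its ABA counts taken as exact, its rise was at least 2-fold in Delta28 and at least 2.79-fold in K>R 1-9 by the same floor. Counting error in so few ABA counts is not covered for either gene, so rises of these sizes are not shown. In WT ABA leaves a total of 0 counts allows up to 0.105 CPM for either gene, so their absence there is not shown.

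HIRD11, a dehydrin known to bind metal ions, was counted in every library and did not pass the test in any genotype. Delta28 ABA leaves had 1982, 1580 and 1764 CPM of HIRD11, against 1363, 1744 and 2718 CPM in Delta28 mock. K>R 1-9 ABA leaves had 1527, 2164 and 1545 CPM, against 2227, 2403 and 882.7 CPM in K>R 1-9 mock. WT ABA leaves had 2346, 2309 and 1664 CPM, against 1349, 3701 and 1793 CPM in WT mock. In these 3 genotypes the ABA and mock libraries overlapped, and the log2 fold change was -0.04 in each, with 95% intervals of -0.78 to 0.69, -0.78 to 0.70 and -0.78 to 0.69 for Delta28, K>R 1-9 and WT. These values near 0 took either sign when single libraries were left out, and reached 0.42 without WT mock replicate 2. K>R 3 ABA leaves had 1099, 1262 and 1527 CPM, against 1869, 1649 and 1892 CPM in K>R 3 mock, with no overlap, as in 17.3% of the genes tested. The log2 fold change there was -0.39 ± 0.36 (SE), which missed the threshold (adjusted p = 0.531, edgeR's quasi-likelihood test), and -0.49 without mock replicate 2.

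AT4G38410 was low and uneven. Its counts in the 24 libraries ran from 0 to 128, and its levels were 1.07, 11.2 and 2.20 CPM in Delta28 ABA, against 6.17, 2.81 and 0.400 CPM in Delta28 mock. K>R 1-9 ABA leaves had 1.34, 0.483 and 2.58 CPM, against 1.29, 0.210 and 0 CPM in K>R 1-9 mock. K>R 3 ABA leaves had 0.969, 0 and 0 CPM, against 1.47, 0.616 and 5.502 CPM in K>R 3 mock. WT ABA leaves had 11.0, 1.15 and 3.58 CPM, against 2.03, 8.94 and 12 CPM in WT mock. ABA and mock libraries overlapped in each genotype. The log2 fold changes, 0.67 ± 1.09 (SE) in Delta28, 1.45 ± 1.34 in K>R 1-9, -3.41 ± 1.52 in K>R 3 and -0.55 ± 1.12 in WT, all missed the threshold (adjusted p = 0.728, 0.527, 0.156 and 0.83, edgeR's quasi-likelihood test). The Delta28 value was -1.06 without Delta28 ABA replicate 2, and the WT value 0.04 without WT mock replicate 3. The K>R 1-9 value was 3.94 without K>R 1-9 mock replicate 1 and 0.80 without mock replicate 3. The K>R 3 value was -7.30 without K>R 3 ABA replicate 1, -3.84 without mock replicate 2 and -2.15 without mock replicate 3.

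Of the 10 dehydrins 7 were tested, and 5 passed as higher with ABA in Delta28, where 8.69% of the 13874 genes tested were called higher. In K>R 1-9 the count was 5, against a background of 5.73%, in K>R 3 it was 4, against 6.08%, and in WT it was 5, against 4.14%. None of the 7 tested passed as lower with ABA in any genotype, where 5.56% (Delta28), 3.58% (K>R 1-9), 4.70% (K>R 3) and 1.63% (WT) of all genes did. XERO1, without counts in mock leaves, could not fall. At these shares the lack of a lower call among so few genes is near the background and is no result about the dehydrins. ERD10, ERD14 and RAB18 passed as higher in all 4 genotypes, as did 2.06% of the genes tested, and XERO1 passed in all 4 as well. The genes called were COR47, ERD10, ERD14, RAB18 and XERO1, except that COR47 missed the threshold in K>R 3. The counts include XERO1, which had to differ to be tested. With XERO1 set aside, the genes called were COR47, ERD10, ERD14 and RAB18, without COR47 in K>R 3. Without K>R 3 mock replicate 2 the K>R 3 count was 2 (RAB18 and XERO1), with 4% of all genes called higher. Without Delta28 ABA replicate 2 the Delta28 count was 3, with 4.6% of all genes called higher, and without WT ABA replicate 2 the WT count was 3, with 1.49%. The median log2 fold change of the 7 tested was 2.14 in Delta28, 2.43 in K>R 1-9, 1.41 in K>R 3 and 2.39 in WT. These medians were the same with XERO1 set at its rise over the floor of 3 counts. Over all genes tested the medians were -0.05, -0.02, 0.00 and 0.00. COR47, ERD10, ERD14 and RAB18 had all 12 ABA libraries above all 12 mock libraries in CPM, which held for 239 of the 13874 genes (1.72%). With CPM scaled by TMM it held for 1.82%, and these genes still separated. XERO1 separated as well, but it passed the filter through its ABA libraries alone and adds no support.

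**Figure D3:**
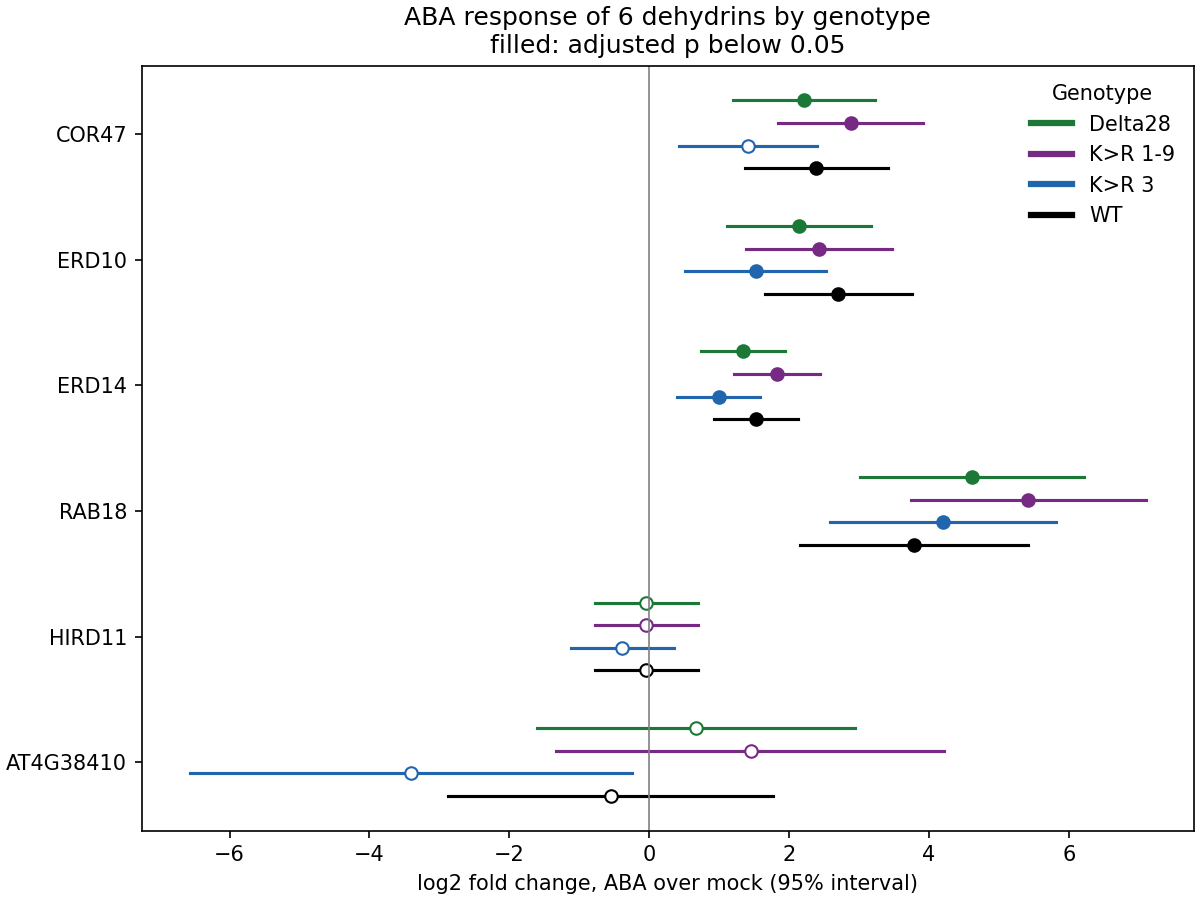
Log2 fold change, ABA over mock, of 6 dehydrins in Delta28, K>R 1-9, K>R 3 and WT, with 95% intervals from edgeR and filled symbols where the adjusted p was below 0.05. RAB18 ran from 3.79 to 5.42, COR47, ERD10 and ERD14 from 0.99 to 2.88, and HIRD11 lay near 0. XERO1 is left out because its mock libraries hold 0 counts.

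Some markers of leaf cell types moved with the treatment beside these genes. The 5 mesophyll markers (RBCS1A, RBCS1B, RCA, LHCB2.2 and LHCB2.3) summed to 258 to 1216 CPM in ABA libraries, against 1092 to 6126 CPM in mock libraries. Of these 5 markers, 4 passed as lower with ABA in Delta28, 4 in K>R 1-9, 4 in K>R 3 and 3 in WT. Over all genes tested, 5.56%, 3.58%, 4.70% and 1.63% were called lower in that order. The shares called higher were 8.69%, 5.73%, 6.08% and 4.14%. The 4 guard cell markers summed to 140 to 393 CPM in ABA libraries, against 74.9 to 164 CPM in mock libraries, with MYB60 at 0 in all ABA libraries. The members of that sum moved apart: of the 3 tested, KAT1 passed as higher with ABA in Delta28, K>R 3 and WT, AT1G22690 as lower in the 3 mutants and FMA as lower in K>R 1-9, with medians of -0.75, -2.00, 0.37 and -0.22 in Delta28, K>R 1-9, K>R 3 and WT. The 3 vascular markers summed to 144 to 265 CPM in ABA libraries, against 57.3 to 158 CPM in mock libraries, with APL at 0 in all mock libraries. Of these, 2 were tested, and 1 passed as higher with ABA in each genotype. The 3 epidermal markers summed to 120 to 218 CPM in ABA libraries, against 115 to 242 CPM in mock libraries, with PDF1 at 0 throughout. Among these 2 were tested, and none passed with ABA in any genotype. Of the 3 seed markers CRA1 and CRU3 were at 0 in all libraries, and OLEO1 was at 0 in all mock libraries. The marker of dividing cells, CYCB1;1 (AT4G37490), was at 0 to 0.242 CPM in ABA libraries and at 0 to 0.0857 CPM in mock libraries. Their part in the result was not tested.

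The question of whether the H2A.Z tail variants change the ABA response of the dehydrins is addressed by the difference of the ABA response between each mutant and WT. No dehydrin passed that test in Delta28, K>R 1-9 or K>R 3, against a background of 0.00% in each of these comparisons. Over all genes edgeR's quasi-likelihood test called 0, with 445, 456 and 512 genes at an unadjusted p under 0.05, and DESeq2 called 0 as well. None of the 6 dehydrins with a value was at an unadjusted p under 0.05. XERO1 has no value here, since both of its mock groups are at 0.

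The widest differences of the acidic dehydrins were those of K>R 3 minus WT. For ERD10 the difference of log2 responses was -1.18, with a 95% interval of -2.58 to 0.23, and -1.37 without K>R 3 mock replicate 2. For COR47 it was -0.98 (-2.36 to 0.39), and for ERD14 -0.54 (-1.38 to 0.30). Without K>R 3 mock replicate 2 these 2 differences were -1.08 and -0.44, that of RAB18 was 0.29 and that of HIRD11 -0.42. In Delta28 minus WT the differences of these 3 genes were -0.56 for ERD10 (-1.96 to 0.84), -0.19 for COR47 (-1.56 to 1.18) and -0.19 for ERD14 (-1.02 to 0.65). In K>R 1-9 minus WT they were -0.27 for ERD10 (-1.67 to 1.13), 0.48 for COR47 (-0.89 to 1.86) and 0.30 for ERD14 (-0.54 to 1.14). For RAB18 the difference was 0.82 in Delta28 minus WT (-1.32 to 2.97), 1.63 in K>R 1-9 minus WT (-0.57 to 3.83) and 0.41 in K>R 3 minus WT (-1.78 to 2.61). For HIRD11 it was 0.00 (-1.04 to 1.04), 0.01 (-1.04 to 1.05) and -0.34 (-1.38 to 0.70) in the same order. For AT4G38410, with few counts, it was 1.22 (-2.03 to 4.46), 2.00 (-1.62 to 5.61) and -2.86 (-6.79 to 1.07). Without K>R 3 mock replicate 2 the last of these was -3.27. Apart from HIRD11 and AT4G38410, the sign of 3 of these differences turned when 1 library was left out. COR47 in Delta28 minus WT was 0.11 without WT mock replicate 1 and 0.06 without Delta28 ABA replicate 1 or 3. ERD10 in K>R 1-9 minus WT was 0.31 without K>R 1-9 mock replicate 1, and RAB18 in K>R 3 minus WT was -0.48 without K>R 3 ABA replicate 2. AT4G38410 in Delta28 minus WT turned as well, to -0.49 without Delta28 ABA replicate 2. The RAB18 difference of K>R 1-9 minus WT ran between 0.49 and 2.84 over its alternatives, and that of ERD10 in Delta28 minus WT between -1.57 and -0.24. The HIRD11 differences of Delta28 and K>R 1-9, both near 0, took either sign when single libraries were left out. The intervals reach beyond 1 on the log2 scale for most of these genes, so that a change of response of that size was not excluded, and a p that misses the threshold does not show equal responses. The 3 comparisons share the WT libraries.

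**Figure D4:**
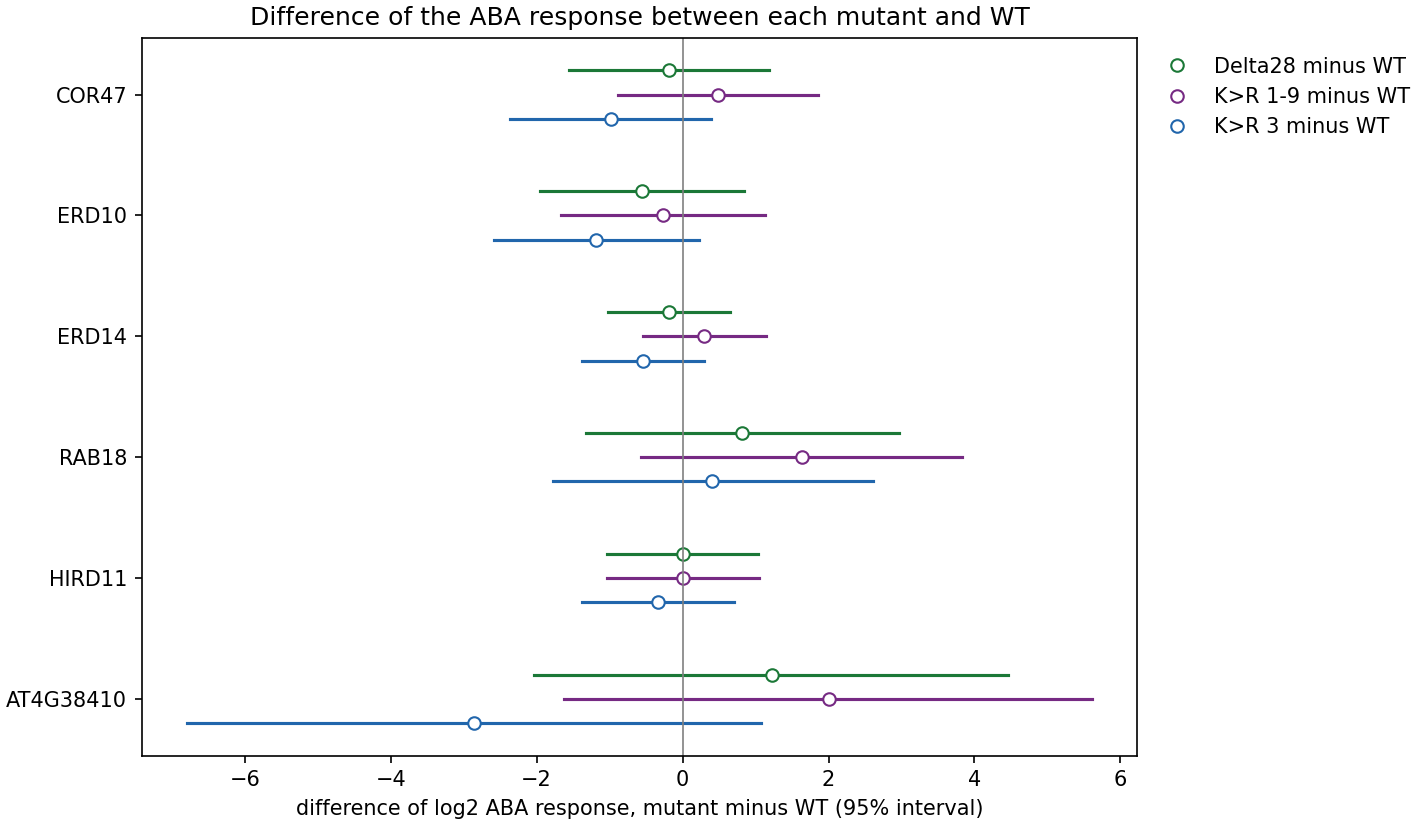
Difference of the log2 ABA response, mutant minus WT, of 6 dehydrins with 95% intervals. All 18 intervals cover 0, and those of AT4G38410 are the widest.

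Within a treatment no dehydrin passed the test between a mutant and WT, by edgeR or by DESeq2. In mock leaves 0.159% of genes were called in Delta28, 0.245% in K>R 1-9 and 0.00721% in K>R 3. In ABA leaves 0.115%, 0.101% and 0.00721% were called. In mock leaves ERD10 was 0.95 higher in Delta28 than in WT on the log2 scale (-0.05 to 1.95, adjusted p = 0.588, edgeR's quasi-likelihood test), and COR47 was 0.61 higher (-0.37 to 1.59). In K>R 1-9 mock leaves COR47 was at -0.76 relative to WT (-1.74 to 0.22) and ERD14 at -0.43 (-1.02 to 0.17). In K>R 3 mock leaves ERD10 was at 0.73 (-0.27 to 1.73), and at 0.91 without mock replicate 2. In ABA leaves RAB18 was at 1.21 in K>R 1-9 (-0.14 to 2.55) and XERO1 at 1.33 in Delta28 (-0.53 to 3.19), both relative to WT. Over its alternatives the RAB18 value ran between 0.05, without K>R 1-9 ABA replicate 2, and 2.03, without WT ABA replicate 2. Those of COR47 in K>R 1-9 mock leaves ran between -1.51 and -0.38, and those of XERO1 between 1.05 and 1.92. AT4G38410 was the only dehydrin at an unadjusted p under 0.05 in these comparisons: its log2 fold change was -3.65 in K>R 1-9 against WT in mock leaves (adjusted p = 0.202, edgeR) and -4.37 in K>R 3 against WT in ABA leaves (adjusted p = 0.378). Over the alternatives these ran between -6.16 and -3.03 and between -8.25 and -3.30.

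ABA replicate 2 held the highest level of COR47, ERD14, RAB18 and XERO1 among the 3 ABA libraries in all 4 genotypes, and of ERD10 in 3 of them, with K>R 1-9 the exception. HIRD11 and AT4G38410 had it highest in 1 genotype each. Over all genes tested, 4.30% had ABA replicate 2 highest in all 4 genotypes, and among the 286 genes called higher with ABA in all 4 genotypes, 17.1% did. When ABA replicate 2 of every genotype was left out, a setting chosen after the data were seen, 3 dehydrins passed in Delta28, 5 in K>R 1-9, 1 in K>R 3 and 4 in WT, where 4.55%, 4.84%, 3.81% and 1.79% of all genes were called higher.

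**Figure D5:**
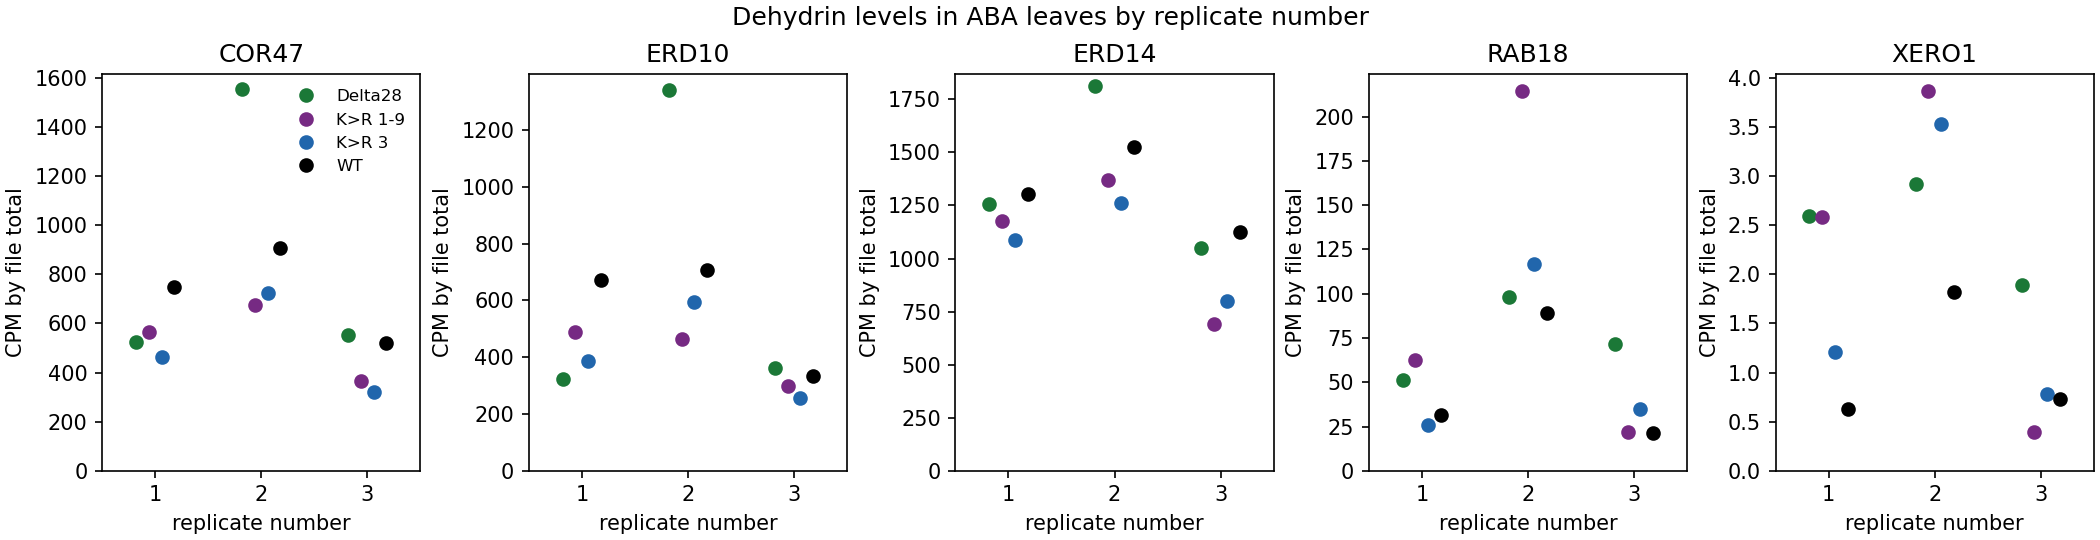
CPM of the 5 dehydrins that rose in the 12 ABA libraries by replicate number, coloured by genotype, with points set slightly apart along the x axis. Replicate 2 is highest in each genotype for COR47, ERD14, RAB18 and XERO1, and in 3 of 4 genotypes for ERD10.

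Correlations between the dehydrins were read over the 24 libraries. On log2(CPM + 1) COR47 correlated with ERD14 at r = 0.97 and with ERD10 at 0.96, and ERD10 with ERD14 at 0.95, as a description over libraries that share the treatment contrast. After the group means were removed the same pairs stood at 0.81, 0.87 and 0.73. RAB18 and XERO1 correlated at 0.95 over all libraries and at 0.82 within groups. With COR47, ERD10 and ERD14, RAB18 correlated at 0.88, 0.88 and 0.89 over all libraries, and at 0.62, 0.54 and 0.61 within groups. For XERO1 and the same genes the values were 0.80, 0.81 and 0.84, and 0.47, 0.45 and 0.65 within groups. HIRD11 correlated with COR47, ERD10, ERD14, RAB18 and XERO1 at -0.12 to 0.11 over all libraries. Within groups these pairs stood at 0.44, 0.21, 0.33, 0.32 and 0.1, in that order. AT4G38410 correlated with the other tested dehydrins at -0.17 to 0.27 over all libraries and at -0.27 to 0.45 within groups. COR47 and ERD10 lie in tandem, and their counts were whole numbers in 23 of 24 libraries, so that few reads were split between them by the authors' counting.

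Outside the family the gene closest in pattern to COR47, ERD10 and ERD14 over the 24 libraries was AT5G17460, a glutamyl-tRNA (Gln) amidotransferase subunit C in the annotation, with r of 0.95, 0.96 and 0.95. The next for COR47 and ERD14 was AT3G49220, annotated in the plant invertase and pectin methylesterase inhibitor superfamily (0.95 and 0.94), and for ERD10 AT4G30470, annotated as a Rossmann-fold protein (0.95). RAB18 was closest to DAW1 (AT4G35560), a WD40 repeat protein, at 0.97, and to AT5G59330, a lipid-transfer protein, at 0.95. XERO1 was closest to AT4G36600, another late embryogenesis abundant protein, at 0.96, and to DAW1 at 0.94. AT4G38410 was closest to DELTA-TIP (AT3G16240), a tonoplast water channel, at 0.79, and to UMAMIT43-psi (AT3G28060) at 0.78. HIRD11 was closest to AT4G32340, a tetratricopeptide repeat protein, at 0.79, and to AT5G18590, a kelch repeat protein, at 0.76.

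Upstream factors of the ABA pathway were read from the same fit. Of 9 listed kinases and transcription factors, 7 were tested. As higher with ABA, 4 passed in Delta28, 3 in K>R 1-9, 2 in K>R 3 and 1 in WT, with 0 lower. Over all genes tested, 8.69%, 5.73%, 6.08% and 4.14% were called higher in that order. ABF3, an ABRE-binding factor, passed in each genotype, with log2 fold changes of 1.98 ± 0.39 (SE) in Delta28, 1.61 ± 0.38 in K>R 1-9, 1.62 ± 0.38 in K>R 3 and 1.95 ± 0.39 in WT. OST1, a kinase that activates ABFs, passed in Delta28 (1.27), K>R 1-9 (1.27) and K>R 3 (1.59), and stood at 1.09 in WT (adjusted p = 0.0566, edgeR's quasi-likelihood test). ABF4 (1.04) and the kinase SNRK2.3 (1.00) passed in Delta28, and ABF2 (1.77) in K>R 1-9. The median of the 7 was 1.04, 0.78, 0.74 and 0.98 in Delta28, K>R 1-9, K>R 3 and WT.

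Of 7 listed CBF and DREB factors with ICE1, 3 were tested, since CBF1, CBF2, CBF4 and DREB1A are not analysed here. DREB2A, a drought-responsive DRE-binding factor, passed in Delta28 (2.70) and K>R 1-9 (2.26), and stood at 0.43 in K>R 3 and at 1.71 in WT. DREB2B and ICE1 did not pass in any genotype, and the medians were 0.58, 0.38, 0.62 and 0.69 in Delta28, K>R 1-9, K>R 3 and WT. The shares of all genes called higher were 8.69%, 5.73%, 6.08% and 4.14% in that order.

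Of 15 other listed proteins known to protect cells in cold, drought or ABA treatment, 14 were tested. As higher with ABA, 8 passed in Delta28, 11 in K>R 1-9, 8 in K>R 3 and 7 in WT, with 0 lower. Over all genes tested, 8.69%, 5.73%, 6.08% and 4.14% were called higher in that order. The medians of the list were 1.56, 2.26, 1.56 and 1.5. LTI65 (RD29B), whose promoter is a classical ABRE reporter, had log2 fold changes of 5.06 in Delta28, 7.35 in K>R 1-9, 7.15 in K>R 3 and 7.61 in WT. LEA7 and AT3G02480, late embryogenesis abundant proteins, passed in each genotype, with LEA7 at 11.88 in Delta28, 7.29 in K>R 1-9 and 9.56 in K>R 3, and AT3G02480 at 10.82, 6.35 and 9.82 in the same order. No fold is given for them in WT, whose 3 mock libraries together held 3 or fewer counts of each. Their folds in the mutants carry no SE here and are not read as sizes. KIN1 passed in each genotype at 3.11, 3.88, 3.54 and 3.69 in the order Delta28, K>R 1-9, K>R 3 and WT, but its neighbour KIN2 is a close copy and reads may be split between them. KIN2 passed in K>R 1-9 (1.61), K>R 3 (1.40) and WT (1.27). RD22, a dehydration-responsive gene, passed at 1.76, 1.08, 1.93 and 1.25 in Delta28, K>R 1-9, K>R 3 and WT. LEA4-5 passed in Delta28 (4.61), and in K>R 1-9 and WT with mock groups at 1 or 0 counts, and SAG21 passed in Delta28 (3.31). With so few mock counts, LEA7 and AT3G02480 in WT and LEA4-5 in K>R 1-9 and WT could pass only as higher. These calls are in the counts of this list and add no support to them. COR15A, a chloroplast protein of cold acclimation, passed in K>R 1-9 (2.36) and K>R 3 (1.71), and LTI78 (RD29A) in K>R 1-9 (2.42).

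Of 10 listed seed maturation genes, 7 are in the files and 1, EM1, was tested. EM1, a late embryogenesis abundant protein of seeds, passed in Delta28 (adjusted p = 0.0172, edgeR's quasi-likelihood test) and K>R 1-9 (adjusted p = 0.0458), and had 3 or fewer counts in the mock libraries of each genotype. It entered the test through its ABA libraries, so its calls add no support.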

How the data were processed

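RNA of 24 leaf libraries was measured with a 3′ end kit, and libraries were grouped by labelled genotype and treatment. The submitters' processing notes name Trim Galore, STAR and RSEM, and versions, settings and genome build are not given in the sources used. The authors' deposited RSEM files hold, per the file headers, expected counts, the estimated reads per gene before normalisation, and transcript lengths. Expected counts were rounded, filtered by filterByExpr with the 8 groups (13874 genes kept), scaled by TMM (factors 0.886 to 1.135) and fitted in R 4.3.3 with edgeR 4.0.16 as 1 quasi-likelihood model with 8 group means (16 residual degrees of freedom, biological coefficient of variation 0.364). Tests were two-sided, with Benjamini-Hochberg adjustment over all genes and a threshold of 0.05. The fit was checked on simulated counts. CPM used each file's total. Intervals of fold changes are 95% intervals. Floors of 3 counts cover only the counting error of the group at 0 counts. Alternatives were DESeq2 1.42.0, RLE and total-count scaling, no filter, a replicate block, only the groups compared, CPM by TMM, and left-out libraries. The members and gene lists were chosen with earlier results of these data known. All 10 dehydrins are named, with the 2 genes most like each tested one. The plan was to name list genes that passed, at most 6 per list and comparison by size. Among the other protective proteins more than 6 are named in a comparison, and not strictly by size.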

Additional observations from a re-analysis of the deposited data

How the results depend on the processing

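No called fold change of a dehydrin changed sign under any setting. Of all 85 fold changes computed for the dehydrins, 24 took the other sign under at least 1 alternative, in 71 of 1254 values, 0 of them among the called ones and none with an adjusted p below 0.633. The count of dehydrins called with ABA was 5 in Delta28, 5 in K>R 1-9, 4 in K>R 3 and 5 in WT. In K>R 3 it was 2 with total counts in place of TMM. It was 1 when only the 2 groups compared were fitted, where 5 dehydrins were tested in place of 7. Without mock replicate 2 of both K>R 3 and WT it was 2. Leaving out ABA replicate 2 of all 4 genotypes gave 1, a setting added after the data were seen, under which the Delta28 count was 3. Leaving out 1 library at a time gave 3 to 5 in Delta28 (3 without ABA replicate 2), 5 throughout in K>R 1-9, 1 to 4 in K>R 3 (4 only without ABA replicate 3) and 3 to 4 in WT (3 without ABA replicate 2); the cause was not tested. No alternative gave a call in a mutant against WT comparison or in a difference of responses. DESeq2 also called COR47 in K>R 3 (adjusted p = 0.022), where it gave XERO1 no adjusted p. Over all genes it called 2632, 1918, 2146 and 1291 with ABA in Delta28, K>R 1-9, K>R 3 and WT, against 1977, 1291, 1496 and 801 by edgeR. Deviations of same-numbered libraries were compared between ABA and mock of a genotype and between each mutant and WT. They correlated at -0.21 to 0.33, and in 0 of 10 comparisons were all over 0.1. Same-numbered libraries of different mutants were not compared, so a factor shared by the same-numbered ABA libraries of all genotypes was not tested. With the replicate block the counts of dehydrins called were 5, 5, 3 and 5, the loss being ERD10 in K>R 3 (1.43). Leaving out 1 library at a time, the ABA response of HIRD11 ran between -0.24 and 0.26 in Delta28, -0.39 and 0.21 in K>R 1-9 and -0.30 and 0.42 in WT, and that of AT4G38410 between -1.06 and 1.62 in Delta28 and -1.64 and 0.04 in WT. In the same way the difference of responses ran, in Delta28 minus WT, between -0.91 and 0.11 for COR47, -0.49 and 0.32 for HIRD11 and -0.49 and 2.28 for AT4G38410, in K>R 1-9 minus WT between -0.53 and 0.31 for ERD10 and -0.46 and 0.28 for HIRD11, and in K>R 3 minus WT between -0.48 and 1.21 for RAB18. With ABA replicate 2 of all genotypes left out, HIRD11 in Delta28 was at 0.01 and AT4G38410 at -1.06, their Delta28 minus WT differences were 0.13 and -1.01, and the K>R 1-9 minus WT difference of HIRD11 was -0.06. With mock replicate 2 of K>R 3 and WT left out, HIRD11 in WT was at 0.42 and its K>R 1-9 minus WT difference at -0.45, and with the replicate block that difference was -0.01. The Delta28 minus WT difference of HIRD11 was 0.04 by RLE scaling and by DESeq2, and 0.00 with only the groups compared. Total-count scaling shifted the median of all genes by up to -0.17. Depth limits AT2G21490, AT4G39130, XERO1 and AT4G38410.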
